A study of Homo sapiens with 8 samples.

Results

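The insulin-like growth factor (IGF) binding proteins IGFBP1 to IGFBP7, the receptors IGF1R and INSR and the receptor adaptor IRS2 were followed in A549 cells, an established human lung adenocarcinoma line, after knockdown or inhibition of the receptor tyrosine kinase AXL. The 10 genes were taken by symbol from the 58302 genes of the RNA sequencing table, and all 10 were among the 17676 genes that passed the count filter. The 8 libraries fell into 4 groups of 2: A549 cells with a short hairpin RNA (shRNA) against AXL, A549 cells with a control shRNA, A549 cells given 40 nM TP-0903, a small-molecule inhibitor of AXL, and control A549 cells. All groups grew in F12K medium with penicillin, streptomycin and fetal bovine serum, which itself contains IGFs. What the control cells received, how long the treatment lasted, the sequence of the hairpins and whether 1 or several clones were used are not stated in the labels. A P number of unstated meaning stands in every label: P15 and P3 each mark an AXL shRNA and a control shRNA library, and P17 and P4 each mark a TP-0903 and a control library. The stated purpose was a search for pathways that could let lung cancer cells resist TP-0903.

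IGF1 and IGF2 act through IGF1R, a receptor tyrosine kinase closely related to the insulin receptor INSR, with which it can pair into hybrid receptors. The activated receptors phosphorylate adaptors of the IRS family, which bring phosphoinositide 3-kinase to the membrane and so switch on AKT, which in turn keeps FOXO transcription factors out of the nucleus. The binding proteins are secreted, hold IGFs outside the cell and are cut by proteases that set the ligand free. In lung and other carcinomas IGF receptor signalling is a known parallel route to survival when another receptor tyrosine kinase is blocked.

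Library totals ran from 30067011 to 44217023 expected counts. Values are given as CPM, read counts scaled to the library total and by the trimmed mean of M values, and changes as log2 fold changes. Over the tested genes, log2 CPM correlated at 0.988 to 0.991 within a group and at 0.944 to 0.982 between groups, and the biological coefficient of variation was 21.5%. The labels call the libraries biological replicates. AXL itself stood at 55.4 and 63.0 CPM in AXL shRNA cells, against 85.1 and 140 CPM in control shRNA cells (P15 and P3), a log2 fold change of -0.92 that missed the threshold (SE 0.42, edgeR adjusted p = 0.12) and passed it with the P number as a block (adjusted p = 8.58e-04). Without control shRNA P3 it was -0.53 (adjusted p = 0.445). AXL held 280 and 153 CPM in TP-0903 cells, against 216 and 105 CPM in control cells (P17 and P4). Its log2 fold change of 0.43 missed the threshold (SE 0.41, edgeR adjusted p = 0.543) and passed it with the block (edgeR adjusted p = 0.0354). Without TP-0903 P17 the value was -0.06. The epithelial markers KRT7, KRT8, KRT18, KRT19, EPCAM and CDH1 summed to 6164 TPM or more in all 8 libraries. Markers of other cell types were low: the endothelial list summed to at most 3.53 TPM with KDR at 0 throughout, the blood list to at most 8.37 TPM with PTPRC at or under 0.02 TPM, and the hepatocyte list to at most 9.44 TPM. The fibroblast list summed to 22.1 and 34.4 TPM in AXL shRNA cells, against 8.70 and 7.28 TPM in control shRNA cells. Within it COL3A1 held 6.78 and 15.3 TPM in AXL shRNA cells, against 0.57 and 0.73 TPM in control shRNA cells, and COL1A1 and LUM were higher too. PDGFRB was lower there, at or under 0.46 TPM in all 8 libraries, and DCN stayed at or under 0.11 TPM and COL1A2 at or under 0.02 TPM. The smooth muscle list, nearly all of it ACTA2, summed to 115 and 87.8 TPM in TP-0903 cells, against 21.9 and 30.5 TPM in control cells, with DES at or under 0.12 TPM. In a bulk library fewer cells of a kind and less RNA per cell cannot be told apart.

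The 10 genes lie on 8 chromosomes in GENCODE release 29 (GRCh38). IGFBP1 (ENSG00000146678, chr7:45888357-45893668, plus strand) and IGFBP3 (ENSG00000146674, chr7:45912245-45921874, minus strand) are neighbours with 18576 bases between them. IGFBP2 (ENSG00000115457, chr2:216632828-216664436, plus) and IGFBP5 (ENSG00000115461, chr2:216672105-216695525, minus) form a similar pair with 7668 bases between them. IGFBP4 (ENSG00000141753) lies at chr17:40443461-40457731 (plus), IGFBP6 (ENSG00000167779) at chr12:53097436-53102345 (plus) and IGFBP7 (ENSG00000163453) at chr4:57030773-57110385 (minus). IGF1R (ENSG00000140443) spans chr15:98648539-98964530 (plus), INSR (ENSG00000171105) chr19:7112255-7294034 (minus) and IRS2 (ENSG00000185950) chr13:109752698-109786568 (minus). IGFBP7 overlaps POLR2B, a gene of the other strand, by 396 bases, and since no strand is stated for the libraries, reads from that stretch cannot be assigned with certainty.

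Promoter windows of 300 bases, from 250 before to 50 after the start, were found in RefSeq (GRCh38.p14) for 8 of the 10 genes. The windows of the 3 members with the smallest p in the knockdown comparison are shown, because these are the genes on which the results turn. They were searched on both strands for GTAAACA (the FOXO consensus), AAAACAA (the core of insulin response elements), TGATGNAAT (the composite site of ATF4 and C/EBP factors), ACGTG (the hypoxia response core) and TATAAA (the TATA box), and the capitals mark the matches.
IRS2, chr13:109786534-109786833, minus strand: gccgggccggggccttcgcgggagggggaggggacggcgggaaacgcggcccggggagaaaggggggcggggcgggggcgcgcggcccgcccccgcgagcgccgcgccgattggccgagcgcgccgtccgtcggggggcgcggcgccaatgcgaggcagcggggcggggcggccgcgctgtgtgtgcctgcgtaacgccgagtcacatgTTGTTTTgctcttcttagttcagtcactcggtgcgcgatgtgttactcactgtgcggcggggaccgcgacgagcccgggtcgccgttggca
IGFBP4, chr17:40443200-40443499, plus strand: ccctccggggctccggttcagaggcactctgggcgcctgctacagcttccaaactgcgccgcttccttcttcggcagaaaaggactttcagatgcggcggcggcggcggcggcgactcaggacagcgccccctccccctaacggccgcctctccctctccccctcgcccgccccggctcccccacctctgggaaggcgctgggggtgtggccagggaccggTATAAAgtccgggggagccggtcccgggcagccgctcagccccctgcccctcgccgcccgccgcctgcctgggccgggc
IGFBP6, chr12:53097417-53097716, plus strand: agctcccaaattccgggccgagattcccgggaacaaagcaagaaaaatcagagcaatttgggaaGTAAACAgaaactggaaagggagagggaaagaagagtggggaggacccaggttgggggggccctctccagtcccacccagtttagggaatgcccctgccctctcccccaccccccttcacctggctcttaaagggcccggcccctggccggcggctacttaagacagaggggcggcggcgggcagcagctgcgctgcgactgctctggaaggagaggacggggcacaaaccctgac
In IRS2 the match is AAAACAA on the opposite strand, which reads TTGTTTT here, with its first base at position -41 from the start. IGFBP4 holds TATAAA at position -29, and IGFBP6 holds GTAAACA at position -186. Of 35116 RefSeq windows of the same length, 7.46% held AAAACAA, 11.5% TATAAA and 3.42% GTAAACA. Among the other member windows, ACGTG was found once each in IGFBP2 and IGF1R (21.4% of all windows), and TGATGNAAT in none of the 8 (0.991% of all windows). The IRS2 and IGFBP4 windows had 75.7% and 74.0% G or C, against a median of 58.7% over all windows, while IGFBP6 stood near that median at 61.7%. A match is a description of these letters, not of a factor's binding.

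Between genes, levels were compared in TPM, a transcript share that accounts for transcript length. IGFBP4, an inhibitory binding protein, was the most abundant of the 10 in every group, with a mean of 1075 TPM over the 8 libraries and a range of 440 to 1422. IGFBP7, a low-affinity member found in basement membrane, had a mean of 149 TPM (61.8 to 328). IGFBP3, the main carrier of IGFs in blood, had a mean of 138 TPM (69.8 to 274). IGFBP6, which prefers IGF2, had a mean of 116 TPM (73.1 to 219). The ranges of IGFBP7, IGFBP3 and IGFBP6 overlapped, so their order is not resolved beyond the spread. IGFBP2 (mean 46.0 TPM, range 32.4 to 63.1) and IGF1R (mean 40.3 TPM, range 29.2 to 48.5) overlapped likewise. IRS2 (mean 11.5 TPM), IGFBP5, a matrix-binding member (mean 6.70 TPM), and IGFBP1, a member whose liver gene insulin represses (mean 6.52 TPM), had overlapping ranges and varied most, by 6.73, 8.08 and 16.1 times between the lowest and highest library. INSR was the lowest, with a mean of 1.39 TPM and a range of 0.76 to 2.45. IGF1R varied least, by 1.66 times.

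**Figure D1:**
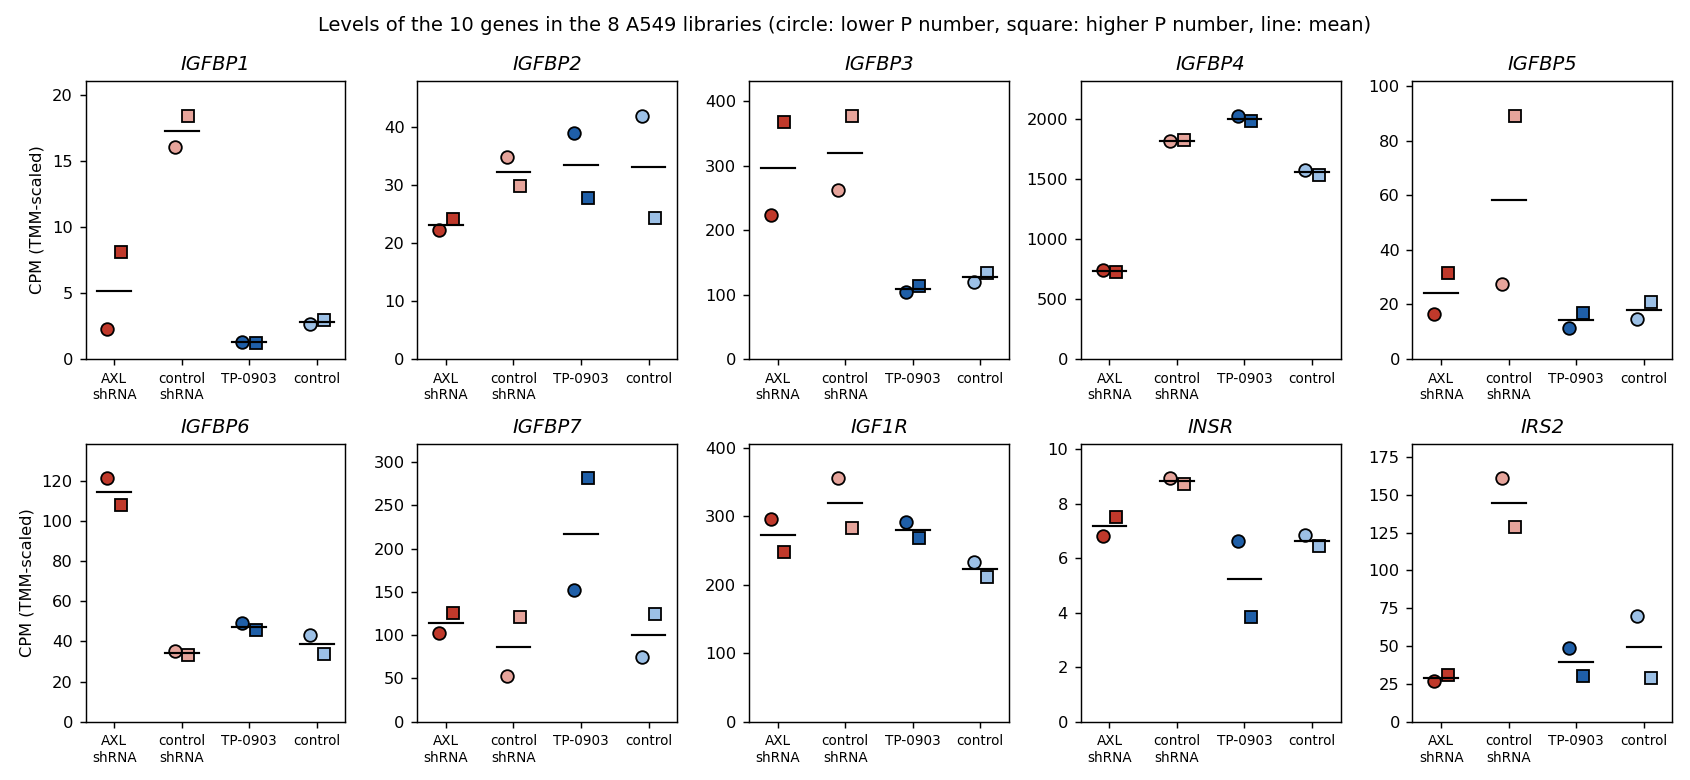
CPM scaled by trimmed mean of M values (vertical axis, from 0 in each panel) of each of the 10 genes in AXL shRNA, control shRNA, TP-0903 and control libraries, with a point per library and a line at the mean of 2. AXL shRNA libraries stand apart at the bottom for IGFBP4 (723 and 742 CPM) and at the top for IGFBP6 (108 and 121 CPM), while for IRS2 the control shRNA libraries stand apart at the top (129 and 161 CPM).

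The knockdown comparison set AXL shRNA cells against control shRNA cells and asks what follows when AXL is lowered. Among the binding proteins IGFBP6 rose, IGFBP4 fell and IGFBP1 fell, and downstream of the receptors IRS2 fell. Thus 1 of the 10 genes rose, against 18.5% of all tested genes, and 3 fell, against 19% of all tested genes. Both counts lie near what those background shares give for 10 genes. The median log2 fold change was -0.39 over the 10 genes and -0.01 over all tested genes. The tests are edgeR quasi-likelihood tests adjusted over all tested genes, and in a single-gene exact permutation test 2 against 2 libraries could not give a two-sided p under 0.333.

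IGFBP6 held 108 and 121 CPM in AXL shRNA cells, against 33.0 and 35.0 CPM in control shRNA cells (P15 and P3). Both AXL shRNA libraries lay above every one of the other 6. The rise was 3.36-fold (log2 fold change 1.75, SE 0.14, edgeR adjusted p = 4.28e-04). IGFBP4 held 723 and 742 CPM in AXL shRNA cells, against 1824 and 1816 CPM in control shRNA cells. Both AXL shRNA libraries lay below every one of the other 6, and within each group the 2 libraries were close together. The level fell by 1.31 on the log2 scale, to 0.403 of the control shRNA level (SE 0.12, edgeR adjusted p = 5.51e-04). Both calls were kept in all 18 alternatives, in which the log2 fold change of IGFBP6 ran from 1.45 to 1.83 and that of IGFBP4 from -1.56 to -1.28.

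IRS2, the adaptor that links both receptors to phosphoinositide 3-kinase, held 31.1 and 26.9 CPM in AXL shRNA cells, against 129 and 161 CPM in control shRNA cells. The groups did not overlap, and the AXL shRNA libraries lay beside the lowest of the control cells (29.2 CPM) and TP-0903 cells (30.4 CPM). IRS2 fell by 2.32 on the log2 scale, to 0.200 of the control shRNA level (SE 0.41, edgeR adjusted p = 0.00489), a call kept in all 18 alternatives. IGFBP1 held 8.12 and 2.26 CPM in AXL shRNA cells, against 18.5 and 16.1 CPM in control shRNA cells. The groups did not overlap, but the 2 AXL shRNA libraries differed by more between themselves than those of any other group. IGFBP1 fell by 1.74 (SE 0.51, edgeR adjusted p = 0.0315). That call was lost without control shRNA P15 (adjusted p = 0.102), without control shRNA P3 (0.0761), without control P17 (0.0503) and when only the 4 libraries of the comparison were fitted (0.0782). The IGFBP1 value itself was -2.94 without AXL shRNA P15 and -1.09 without AXL shRNA P3.

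IGFBP5 held 31.6 and 16.6 CPM in AXL shRNA cells, against 89.2 and 27.4 CPM in control shRNA cells. The groups overlapped, since P15 was high in both, and the log2 fold change of -1.28 did not pass (SE 0.55, edgeR adjusted p = 0.108). It was -0.20 without control shRNA P15 (adjusted p = 0.765) and -1.89 without control shRNA P3, the single such fit that passed (adjusted p = 0.0222). IGFBP2, which is often raised in tumours, held 24.1 and 22.3 CPM in AXL shRNA cells, against 29.8 and 34.8 CPM in control shRNA cells (log2 fold change -0.48, SE 0.27, edgeR adjusted p = 0.2). With the P number as a block, both were called lower, IGFBP5 with -1.12 (edgeR adjusted p = 8.68e-04) and IGFBP2 with -0.48 (edgeR adjusted p = 0.0146). The block fit thus called 1 member higher (25.6% of all genes) and 5 lower (26.1% of all genes). IGFBP3 held 368 and 224 CPM in AXL shRNA cells, against 378 and 263 CPM in control shRNA cells, and the groups overlapped (log2 fold change -0.11, 95% interval -0.71 to 0.48). IGFBP7 held 126 and 103 CPM in AXL shRNA cells, against 121 and 52.6 CPM in control shRNA cells (log2 fold change 0.39, 95% interval -0.65 to 1.44).

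Neither receptor passed the test on counts. IGF1R held 248 and 296 CPM in AXL shRNA cells, against 284 and 355 CPM in control shRNA cells, with overlapping groups and a log2 fold change of -0.23 (SE 0.15, edgeR adjusted p = 0.264). INSR held 7.52 and 6.82 CPM in AXL shRNA cells, against 8.73 and 8.92 CPM in control shRNA cells (log2 fold change -0.30, SE 0.26, edgeR adjusted p = 0.396). Once transcript length was taken into account INSR was called lower: its level was 1.07 ± 0.10 TPM in AXL shRNA cells and 2.20 ± 0.35 TPM in control shRNA cells (SD, n = 2 each), with a log2 fold change of -0.82 with effective lengths as offsets (edgeR adjusted p = 0.0367). The deposited mean length of the INSR transcripts was 8087 and 8523 bases in AXL shRNA cells, against 5562 and 6488 bases in control shRNA cells. The IGF1R transcripts averaged 10381 and 9829 bases in AXL shRNA cells, against 10402 and 10559 bases in control shRNA cells. Such lengths are averages over the transcripts to which the authors' quantification assigned reads.

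In the same comparison 5 of 6 epithelial markers, 1 of the 4 markers of KEAP1-mutant A549 cells and 3 of the 4 fibroblast markers tested were called higher, and of 3 blood markers 2 were called higher and 1 lower. Their summed levels moved with the group: the epithelial list reached 20572 and 18117 TPM in AXL shRNA cells, against 7365 and 6164 TPM in control shRNA cells. Their part in the changes of the 10 genes was not tested. On scales without the trimmed mean correction the median of all genes shifted, to -0.15 on log2(TPM + 1) and -0.21 with library totals alone. The share of higher genes among all calls was then 31.3% and 32.8%, against 49.4% here, and the calls for IGFBP4, IGFBP6, IGFBP1 and IRS2 kept their direction.

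**Figure D2:**
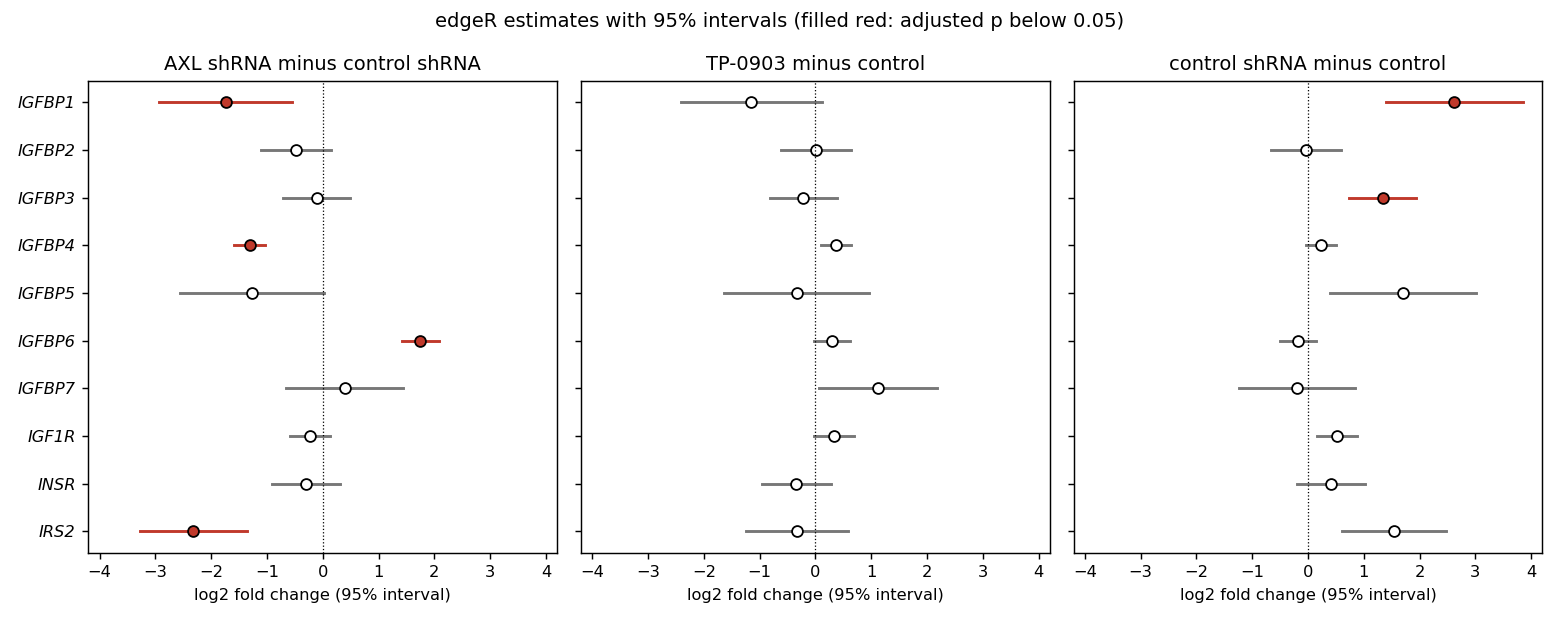
Log2 fold change of each gene (horizontal axis, bars are 95% intervals of the edgeR fit) in 3 panels, the knockdown, the drug and the control shRNA cells minus control cells, with filled red points for an adjusted p below 0.05. In the first panel IGFBP6 lies right of 0 and IGFBP1, IGFBP4 and IRS2 lie left of it, the second panel has no filled point, and in the third IGFBP1 and IGFBP3 lie right of 0.

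The drug comparison, 40 nM TP-0903 against control, asks what the inhibitor itself does. None of the 10 genes passed the threshold, while 4.9% of all tested genes were called higher and 6.35% lower. The median log2 fold change was -0.10 over the 10 genes and -0.02 over all tested genes. At an unadjusted edgeR p under 0.05 there were 2 of the 10 members, IGFBP4 and IGFBP7, a smaller share than the 28.5% of all genes. DESeq2 called the same number, 2, at its adjusted threshold, near its share of 17% of all genes. Limma on log2(TPM + 1) called 0. Of all calls in this comparison 43.5% were higher, and 33.4% with library totals alone. With the P number as a block, edgeR called 3 members higher (12.9% of all genes) and none lower (13.4% of all genes).

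IGFBP4 held 1983 and 2029 CPM in TP-0903 cells, against 1538 and 1574 CPM in control cells (P17 and P4). The groups did not overlap, and each TP-0903 library stood at 129% of the control library with the same number. The log2 fold change was 0.37 (SE 0.11, edgeR adjusted p = 0.085, and 0.0456 with the block). IGFBP7 held 281 and 153 CPM in TP-0903 cells, against 124 and 75.3 CPM in control cells, or 226% and 202% of the same-numbered control. The groups did not overlap, though the 2 libraries of each lay far apart, and the log2 fold change was 1.119 (SE 0.45, edgeR adjusted p = 0.153) and 1.10 with the block (adjusted p = 0.0035). With a library left out it ran from 0.61 without TP-0903 P17 (adjusted p = 0.59) to 1.54 without control P17 (adjusted p = 0.209). The smooth muscle list, given above, moved the same way, and 1 of its 2 tested markers was called higher; its part in the IGFBP7 values was not tested. IGF1R held 268 and 291 CPM in TP-0903 cells, against 212 and 233 CPM in control cells. Its log2 fold change was 0.33 (SE 0.15, edgeR adjusted p = 0.207, and 0.0416 with the block), with the groups apart. Of the 6 epithelial markers 2 were called higher with TP-0903 and none lower. Their sum was 11716 and 12284 TPM in TP-0903 cells, against 8970 and 10094 TPM in control cells. The markers did not all rise: EPCAM held 4.29 and 3 TPM in TP-0903 cells, against 8.97 and 7.82 TPM in control cells. KRT18 and CDH1 were also lower in TPM in both TP-0903 libraries than in the same-numbered control.

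The other 7 genes were not called with or without the block. IGFBP1 held 1.204 and 1.32 CPM in TP-0903 cells, against 2.95 and 2.65 CPM in control cells, a log2 fold change of -1.15 (SE 0.54, edgeR adjusted p = 0.213) at low levels. It was called lower without AXL shRNA P15 (adjusted p = 0.023), without AXL shRNA P3 (0.0217) and with no filter on low counts (0.00288). IGFBP6 held 45.6 and 48.9 CPM in TP-0903 cells, against 34.0 and 43.1 CPM in control cells (log2 fold change 0.29, SE 0.14, edgeR adjusted p = 0.213). IGFBP3 held 114 and 104 CPM in TP-0903 cells, against 133 and 120 CPM in control cells (log2 fold change -0.21, 95% interval -0.81 to 0.38). IGFBP2 and IGFBP5 overlapped between the groups, with log2 fold changes of 0.01 and -0.34. INSR held 3.86 and 6.62 CPM in TP-0903 cells, against 6.44 and 6.84 CPM in control cells, so that P17 was the low library and the groups overlapped (log2 fold change -0.34, SE 0.26, edgeR adjusted p = 0.445). IRS2 held 30.4 and 48.4 CPM in TP-0903 cells, against 29.2 and 69.8 CPM in control cells, again with overlap (log2 fold change -0.33, 95% interval -1.25 to 0.59).

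The difference between both effects was tested as an interaction, the TP-0903 effect minus the AXL shRNA effect. It passed for 3 genes, 2 of them higher with the drug than with the knockdown (9.82% of all tested genes) and 1 lower (10.8% of all tested genes). For IGFBP4 the drug effect exceeded the knockdown effect by 1.68 on the log2 scale (SE 0.16, edgeR adjusted p = 0.00149). For IGFBP6 the difference was -1.46 (SE 0.20, edgeR adjusted p = 0.00375). Of all calls 47.6% were higher, against 61.0% with library totals alone and 63.6% on log2(TPM + 1). Both gene differences passed in all 17 alternatives run, with ranges of 1.66 to 1.90 for IGFBP4 and -1.60 to -1.12 for IGFBP6. For IRS2 the difference was 1.99 (SE 0.56, edgeR adjusted p = 0.0439), and it missed the threshold when any library other than control P4 was left out (adjusted p = 0.0538 to 0.125). IGFBP1, which fell with the knockdown, showed no tested difference between the effects (0.59, SE 0.73, edgeR adjusted p = 0.605). It did without AXL shRNA P15, the higher AXL shRNA library, where the difference was 1.79 (adjusted p = 0.0202). With the block, IGFBP5 (0.77, edgeR adjusted p = 0.038) and IGF1R (0.56, edgeR adjusted p = 0.0154) were added, which made 4 higher (18.6% of all genes) and 1 lower (18.4% of all genes).

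Since the knockdown comparison takes its direction from the control shRNA cells, their place beside the control cells was also measured. These 2 groups are the controls of the other comparisons, so the values are not independent of those above. Control shRNA cells held more IGFBP1 and IGFBP3 than control cells, 2 genes called higher (3.06% of all tested genes) and none lower (6.09% of all tested genes). IGFBP1 held 18.5 and 16.1 CPM in control shRNA cells (P15 and P3), against 2.95 and 2.65 CPM in control cells (P17 and P4), 6.17-fold higher (log2 fold change 2.62, SE 0.52, edgeR adjusted p = 0.0277). IGFBP3 held 378 and 263 CPM in control shRNA cells, against 133 and 120 CPM in control cells (log2 fold change 1.34, SE 0.26, edgeR adjusted p = 0.0247). Of all calls 33.4% were higher, and 43.9% with DESeq2. Of the 2 tested smooth muscle markers 1 was called higher as well, and the list summed to 52.9 and 44.5 TPM in control shRNA cells, against 21.9 and 30.5 TPM in control cells; its part in these values was not tested. Of the 8 fits that left out a library, 2 kept the IGFBP1 call and 5 the IGFBP3 call. Without control P17, for example, the adjusted p was 0.187 for IGFBP1 and 0.151 for IGFBP3. IRS2 was near the threshold, with 129 and 161 CPM in control shRNA cells, against 29.2 and 69.8 CPM in control cells (log2 fold change 1.55, SE 0.40, edgeR adjusted p = 0.0542). Its related adaptor IRS1 was called higher in control shRNA cells (log2 fold change 0.90, SE 0.13, edgeR adjusted p = 0.00793), a call lost without control P17 (adjusted p = 0.0787). IGFBP4 and IGFBP6 were not called between these controls, with log2 fold changes of 0.23 (95% interval -0.04 to 0.50) and -0.18 (95% interval -0.50 to 0.15). Why the 2 kinds of control cells differ was not tested.

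The summed TPM of the 7 binding proteins was 1014 and 952 in AXL shRNA cells, against 1977 and 1655 in control shRNA cells (P15 and P3). In TP-0903 cells it was 1946 and 1834, against 1459 and 1464 in control cells (P17 and P4). IGFBP4 made up 43.4% and 48.2% of that sum in AXL shRNA cells, against 70.2% and 76.7% in control shRNA cells. Its share was 71.6% and 77.5% in TP-0903 cells, against 75.3% and 77.2% in control cells. IGFBP6 made up 18.7% and 23.0% of the sum in AXL shRNA cells, against 3.76% and 4.48% in control shRNA cells. In TP-0903 cells it was 5.18% and 5.78%, against 5.01% and 6.37% in control cells. Thus there were 2.32 and 2.10 IGFBP4 transcripts to 1 of IGFBP6 in AXL shRNA cells, and 12.1 to 18.7 in the other 6 libraries. Each share depends on the other 6 genes of the sum, and no test was made on it.

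**Figure D3:**
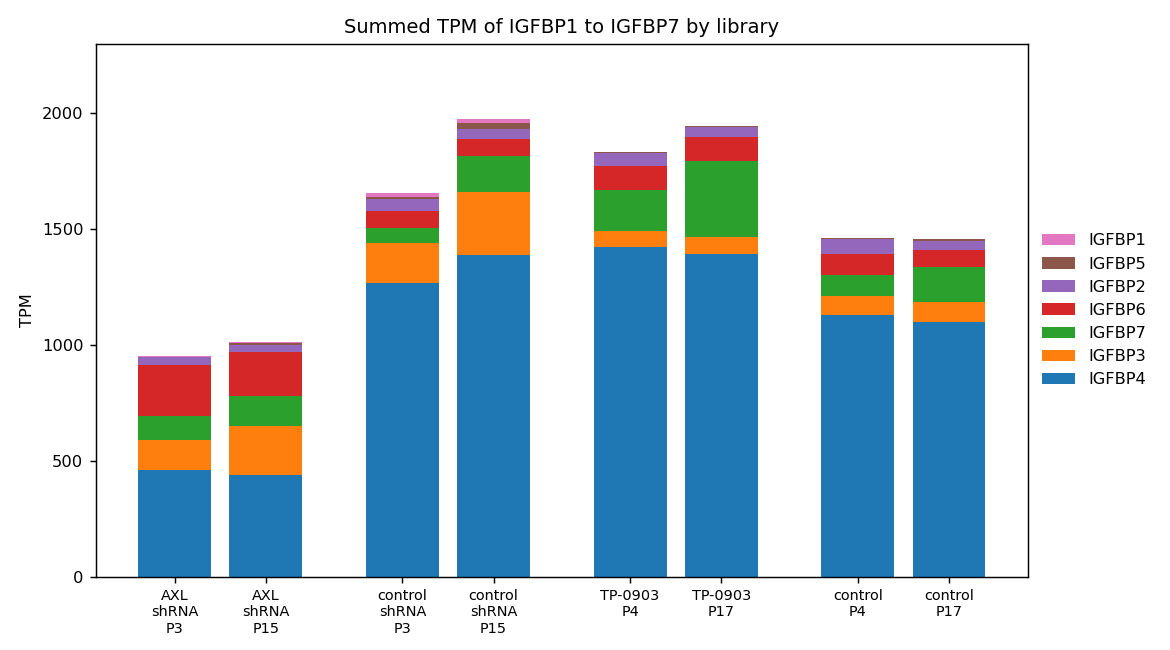
Stacked TPM of IGFBP1 to IGFBP7 (vertical axis) in each of the 8 libraries, AXL shRNA and control shRNA followed by TP-0903 and control, with a colour per gene. The AXL shRNA bars are the lowest, at 1014 and 952 TPM, with the smallest IGFBP4 and the largest IGFBP6 segments.

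Between receptors, IGF1R exceeded INSR in TPM in every library. The ratio was 25.6 and 37.4 in AXL shRNA cells, against 17.04 and 24.1 in control shRNA cells, and 62.7 and 43.7 in TP-0903 cells, against 25.2 and 27.3 in control cells. In both comparisons the treated libraries lay above their own controls in TPM, a scale that takes in the deposited transcript lengths. Those lengths differed for INSR between AXL shRNA and control shRNA cells, as given above. On CPM, without lengths, IGF1R in AXL shRNA cells stood at 87.4% and 83.3% of the same-numbered control shRNA library (P15 and P3). INSR stood at 86.1% and 76.4%, so that at P15 both receptors were lower by a similar proportion. INSR at 0.76 to 2.45 TPM also makes the ratio imprecise. Between adaptors, there were 4.51 and 5.45 IRS1 transcripts to 1 of IRS2 in AXL shRNA cells, against 1.39 and 1.21 in control shRNA cells. In TP-0903 cells this ratio was 2.74 and 2.06, against 3.29 and 1.42 in control cells, and the groups overlapped. IRS1 also fell with AXL shRNA, by 0.49 (SE 0.13, edgeR adjusted p = 0.0217). That IRS1 call was lost without AXL shRNA P15 or control shRNA P3 (adjusted p up to 0.112). The IGF1R transcripts averaged 7956 and 8488 bases in TP-0903 cells, against 9031 and 9150 bases in control cells, and the INSR transcripts 7200 and 8402 bases, against 6979 and 7385 bases.

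**Figure D4:**
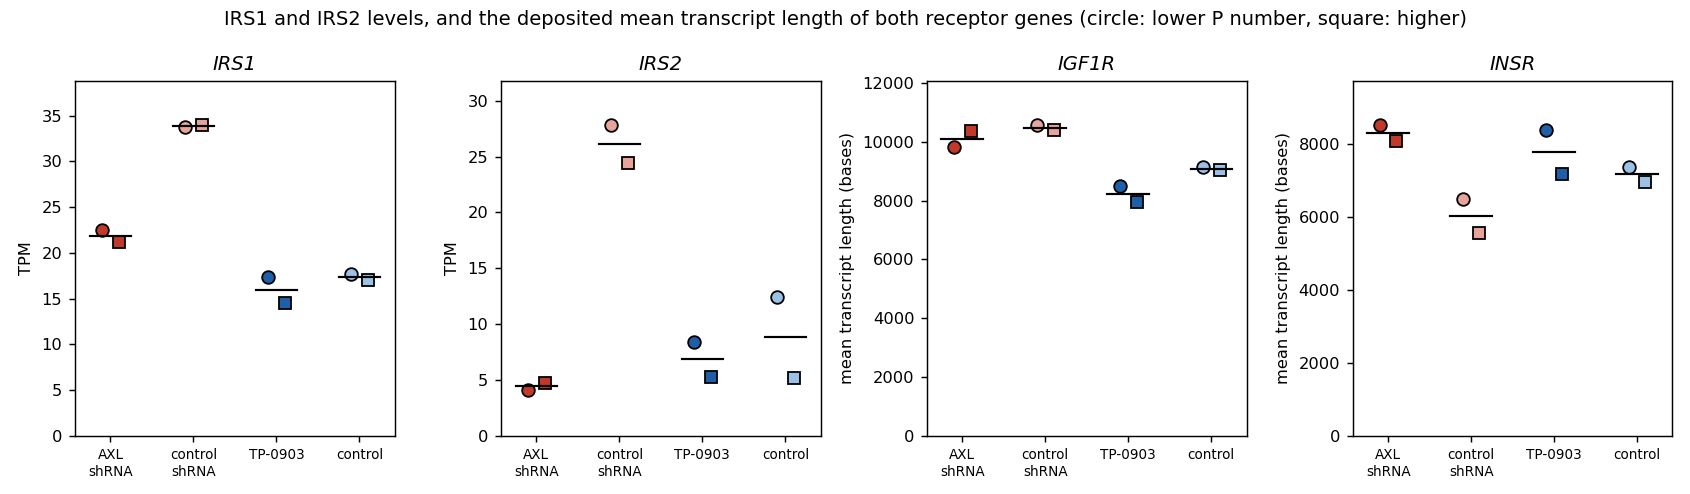
TPM of IRS1 and IRS2, and mean transcript length in bases of IGF1R and INSR as deposited (vertical axes from 0), with a point per library of the 4 groups and a line at the mean of 2. Control shRNA libraries are the highest for both adaptors, at 24.4 and 27.8 TPM for IRS2, and have the shortest INSR transcripts, at 5562 and 6488 bases.

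Across the 8 libraries the members did not all move together. IGFBP4 and IGFBP6 correlated negatively (Pearson r = -0.90 of log2 CPM with a pseudocount of 2). The AXL shRNA libraries, lowest for IGFBP4 and highest for IGFBP6, lay apart from all others in both genes. In TP-0903 cells both genes instead stood above the same-numbered control (P17 and P4). IGFBP4 was at 129% and 129% of it, and IGFBP6 at 134.2% and 113.5%. IGFBP1 ran with its chromosome 7 neighbour IGFBP3 (r = 0.85) and with IGFBP5 (r = 0.86). The chromosome 2 neighbours IGFBP2 and IGFBP5 did not (r = -0.23). The 8 points of each correlation fall into 4 groups that share treatments, so these values are descriptions. Several members kept 1 order by P number: IGFBP3, IGFBP5 and IGFBP7 were higher in the library with the higher number in all 4 groups. IGF1R and IGFBP6 were lower there in all 4. The share of all tested genes with such an order was not counted, so it is not read as a trait of these genes.

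Among 10850 protein-coding genes, those whose log2 CPM followed a member most closely over the 8 libraries were named as a description. IGFBP4 was followed by SCARB2 (r = 0.994), MLEC and FTO, and IGFBP6 by SLC8B1 (r = 0.995), BID and ARHGAP27. IRS2 was followed by CPEB4 (r = 0.997), FAM107B and CACNA1D, and IGFBP3 by DDIT4L (r = 0.993), MAU2 and MYLIP. The closest gene was ASS1 for IGFBP1 (r = 0.98), TAF8 for IGFBP2 (r = 0.95) and AP3S2 for IGFBP5 (r = 0.996). It was ACSL4 for IGFBP7 (r = 0.99), AC244197.3 for IGF1R (r = 0.98) and C5 for INSR (r = 0.97).

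The rest of the pathway was read from gene lists, and their counts stand against the background shares of calls. With AXL shRNA 18.5% of all tested genes were called higher and 19% lower, and with TP-0903 4.9% higher and 6.35% lower. No list count was tested against these shares. Of the ligands, INS was at 0 in all 8 libraries and IGF1 at 23.9 expected counts or fewer. IGF2 held 6.01 and 34.2 CPM in AXL shRNA cells, against 6.77 and 5.96 CPM in control shRNA cells, so that P3 alone was high (log2 fold change 1.66, SE 0.69, edgeR adjusted p = 0.0956). Without that library the value was -0.08, and in TP-0903 cells IGF2 held 1.91 and 3.05 CPM, against 4.03 and 5.18 CPM in control cells (edgeR adjusted p = 0.459). IGF2R, the receptor that removes IGF2 by carrying it to lysosomes, rose with TP-0903, to 228 ± 19.3 CPM, against 137 ± 8.26 CPM in control cells (SD, n = 2 each). The log2 fold change was 0.74 (SE 0.11, edgeR adjusted p = 0.00727). With AXL shRNA it held 215 and 219 CPM, against 185 and 177 CPM in control shRNA cells (log2 fold change 0.26, edgeR adjusted p = 0.0969).

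Among 8 tested proteases of the binding proteins and their partners, 1 rose and 2 fell with AXL shRNA and 1 rose with TP-0903. HTRA1, a secreted serine protease that cuts IGFBP5, fell by 0.99 with AXL shRNA (SE 0.16, edgeR adjusted p = 0.00386). It averaged 45.7 ± 0.94 CPM in AXL shRNA cells, against 91.0 ± 18.0 CPM in control shRNA cells, and 46.9 ± 3.54 CPM in control cells (SD, n = 2 each). Control shRNA cells thus held more HTRA1 than control cells (log2 fold change 0.96, SE 0.16, edgeR adjusted p = 0.0158), a call lost without control shRNA P15, control P17 or control P4 (adjusted p up to 0.0908). STC1, a secreted inhibitor of the pappalysin proteases, rose by 0.86 with AXL shRNA (SE 0.28, edgeR adjusted p = 0.0483) and by 1.40 with TP-0903 (SE 0.29, edgeR adjusted p = 0.0239). PAPPA, the pappalysin that cuts IGFBP4, is outside the rule for named genes and was added after its values were seen. It held 977 and 1353 CPM in AXL shRNA cells, against 604 and 826 CPM in control shRNA cells, and was not called (log2 fold change 0.70, edgeR adjusted p = 0.101). In TP-0903 cells it held 434 and 578 CPM, against 212 and 353 CPM in control cells (log2 fold change 0.84, edgeR adjusted p = 0.116). With the block PAPPA was called higher in both comparisons. Control shRNA cells also held more PAPPA than control cells, 714.8 ± 156.7 CPM against 282.5 ± 99.3 CPM (SD, n = 2 each). That log2 fold change was 1.339 (SE 0.301, edgeR adjusted p = 0.0378).

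Of 9 tested receptor adaptors 1 rose and 3 fell with AXL shRNA, and 1 rose with TP-0903. SHC1, which links the receptors to RAS, rose in both, by 0.56 with AXL shRNA (SE 0.11, edgeR adjusted p = 0.00762) and by 0.70 with TP-0903 (SE 0.11, edgeR adjusted p = 0.0091). SH2B1, an adaptor that enhances insulin receptor signalling, fell by 0.58 with AXL shRNA (SE 0.12, edgeR adjusted p = 0.00851). Of 23 genes from phosphoinositide 3-kinase to AKT and mTOR, 3 rose and 4 fell with AXL shRNA, and 2 rose with TP-0903. The regulatory subunit PIK3R3 rose with AXL shRNA, to 36.1 ± 6.73 CPM, against 5.24 ± 2.503 CPM in control shRNA cells (SD, n = 2 each). Its log2 fold change was 2.78 (SE 0.32, edgeR adjusted p = 0.00107). The subunit PIK3R1 rose by 1.26, and EIF4EBP1, a translation repressor that mTOR inactivates, fell by 1.25. With TP-0903 the subunit PIK3R2 rose by 0.96 and the kinase GSK3B by 0.60, whereas with AXL shRNA PIK3R2 fell by 0.81 (edgeR adjusted p = 0.0117) and GSK3B by 0.37 (edgeR adjusted p = 0.0344). The difference of the effects passed for PIK3R2 (1.76, edgeR adjusted p = 0.0045) and for GSK3B (0.97, edgeR adjusted p = 0.00683). The PIK3R2 fall was lost without control shRNA P3 (adjusted p = 0.0509). The GSK3B fall was lost in 10 alternatives, among them 7 of the 8 fits that left out a library, and turned to 0.10 with effective lengths, where the difference of effects also missed the threshold (adjusted p = 0.0716).

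Among 15 tested FOXO factors and known FOXO targets other than the 10 genes, 3 rose (18.5% of all tested genes) and 2 fell (19%) with AXL shRNA. With TP-0903 3 of them rose (4.9% of all tested genes) and 1 fell (6.35%). SESN1, a stress-induced inhibitor of mTOR complex 1, rose in both, to 66.9 ± 12.9 CPM in AXL shRNA cells, against 16.0 ± 3.51 CPM in control shRNA cells, and to 47.4 ± 5.00 CPM in TP-0903 cells, against 15.1 ± 0.20 CPM in control cells (SD, n = 2 each). PDK4, a kinase that shuts off pyruvate dehydrogenase, fell by 2.27 with AXL shRNA and CITED2 rose by 1.04. With TP-0903 the cell cycle inhibitor CDKN1B fell by 1.19 and the stress gene GADD45A rose by 1.73. Of 9 tested relatives with an IGFBP-type domain, CRIM1 fell by 0.87 with AXL shRNA and CTGF rose by 1.46 with TP-0903, and of the 3 IGF2 mRNA-binding proteins IGF2BP1 and IGF2BP3 rose with AXL shRNA, by 1.202 and 0.70.

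Some of these calls rested on single libraries. With TP-0903, the calls for IGF2R, STC1, SHC1, PIK3R2, GSK3B, CDKN1B, GADD45A and CTGF were lost without control P17 and without TP-0903 P17, with a highest adjusted p over such fits of 0.065 for CDKN1B to 0.148 for STC1. The SESN1 call was kept. With AXL shRNA, the calls for HTRA1, SH2B1, PIK3R1, PIK3R3, EIF4EBP1, SESN1 and IGF2BP1 were kept in every alternative, and those for SHC1 and IGF2BP3 were lost on TPM. The CRIM1 call was lost without AXL shRNA P15 and without control shRNA P3, and the PDK4 call without any of the 4 libraries of the comparison. The STC1 call was lost in 12 alternatives, both TPM fits and 7 of the 8 fits that left out a library among them, with a lowest value of 0.48. The CITED2 call was lost in 10, both TPM fits among them.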

How the data were processed

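RNA was extracted by column from A549 cells and sequenced after Nextera XT preparation, for which no strand is stated, per the labels' protocols. Reads were handled with STAR 2.5.3a, RSEM and GRCh38, per the submitters' processing notes. Neither the version of RSEM nor its annotation is stated. Expected counts, as deposited, are RSEM's estimate of reads for each gene, with no normalization by the authors. TPM were computed by the authors from them with transcript length and depth. FPKM stand in the same tables per the file headers, and no test used them. The deposited transcript lengths and effective lengths were printed or used as offsets.

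Expected counts were rounded, filtered with filterByExpr, scaled by TMM (trimmed mean of M values) and fitted for all 8 libraries with edgeR (4.0.16) quasi-likelihood, 1 term per group, as counts test. Values of p were two-sided and adjusted by the Benjamini-Hochberg method over the 17676 tested genes, with a threshold of 0.05. The fit was also run on simulated counts with the dispersions estimated from these data. Those counts were drawn without any tie between libraries of the same P number, so the run cannot show how such a tie affects the fit. SE is the log2 fold change over the square root of F. Alternatives were other scalings, DESeq2 (1.42.0), limma (3.58.1) on log2(TPM + 1) or log2(TPM + 0.1), other filters, effective lengths, the P number as a block, the libraries of the comparison alone and each library left out. In the 4 pairs of same-group libraries, 50.7% to 56.9% of genes differed beyond counting error.

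The P number was taken as a block because deviations from the group means of libraries with the same number correlated at 0.559 (AXL shRNA and control shRNA) and 0.626 (TP-0903 and control), against 0.177 to 0.380 for groups that share no number. Its values stand beside a result where they change a call. The members and lists were chosen with earlier results of these data known. All 10 members are named, and from each pathway list up to 3 genes with the smallest p per comparison that passed with a mean of at least 5 CPM. For likeness the 3 protein-coding genes of at least 5 CPM with the highest r were taken.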

Additional observations from a re-analysis of the deposited data

Results flagged for a closer look

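Of the 10 genes, 3 passed the interaction test, edgeR's quasi-likelihood test of the TP-0903 effect minus the AXL shRNA effect. The difference was above 0 for 2 of them, against 9.82% of all tested genes, and below 0 for 1, against 10.8%. With 10 genes, such a count is not read as a trait of this family. IGFBP4 differed by 1.68 on the log2 scale (SE 0.16, adjusted p = 0.00149), with 2006 ± 32.4 CPM in TP-0903 cells, against 1556 ± 25.4 CPM in control cells, and 733 ± 13.5 CPM in AXL shRNA cells, against 1820 ± 5.31 CPM in control shRNA cells (SD, n = 2 each). IGFBP6 differed by -1.46 (SE 0.20, adjusted p = 0.00375), with 47.2 ± 2.38 CPM in TP-0903 cells, against 38.5 ± 6.47 CPM in control cells, and 115 ± 9.43 CPM in AXL shRNA cells, against 34.0 ± 1.43 CPM in control shRNA cells. IRS2 differed by 1.99 (SE 0.56, adjusted p = 0.0439), with 39.4 ± 12.7 CPM in TP-0903 cells, against 49.5 ± 28.7 CPM in control cells, and 28.99 ± 2.97 CPM in AXL shRNA cells, against 145 ± 22.6 CPM in control shRNA cells. With a library left out the IRS2 difference ran from 1.51 without control P17 to 2.78 without control P4, and its call was kept in 1 of these 8 fits. The 2 treatments have different controls and share no P number, so the causes of these differences cannot be told apart and were not tested.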

How the results depend on the processing

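Of 700 alternative values of the 10 genes, 613 kept their direction and side of the threshold, 36 passed it newly, 20 lost it and 31 changed sign. IGFBP4, IGFBP6 and IRS2 kept their calls in the knockdown comparison under all 18 alternatives. The count of members called with TP-0903 was 0, and became 2 with DESeq2, 2 with no filter on low counts, 1 with a 5 CPM minimum on the mean and 3 with the replicate block, and 0 to 1 with a library left out. For the difference of effects it was 3, and became 5 with no filter and 5 with the replicate block. For control shRNA minus control it was 2, and became 5 with DESeq2, 5 with no filter, and 0 to 2 with a library left out. That comparison could not be fitted with the block, since its groups share no number. Calls over all tested genes moved too. With TP-0903 they went from 1989 of 17676 genes to 3002 with DESeq2 and 4647 with the block. They were 3515 of 31048 with no filter and 2137 of 11306 with the 5 CPM minimum. The difference of effects went from 3645 to 6530 with the block, and was 5026 of 31048 with no filter. Control shRNA minus control went from 1618 to 2758 with DESeq2, and was 3352 of 31048 with no filter.

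Values near 0 changed sign. With TP-0903, IGFBP2 (0.01) became -0.0532 with library totals alone, -0.0794 on log2(TPM + 1), -0.0805 on log2(TPM + 0.1) and -0.0612 with effective lengths. For the difference of effects, IGFBP3 (-0.10) became 0.044, 0.159 and 0.159 under the first 3 of these settings, and INSR (-0.04) became 0.0998, 0.342, 0.467 and 0.343. IGFBP2 in control shRNA minus control (-0.04) became 0.00774 with library totals alone. With a library left out, the log2 fold change ran from -0.517 to 0.201 for IGFBP3 and from -0.0953 to 1.11 for IGFBP7 in the knockdown comparison, and from -0.318 to 0.476 for IGFBP2 and from -0.814 to 0.453 for IRS2 with TP-0903. For the difference of effects it ran from -0.0594 to 1.79 for IGFBP1, from -0.416 to 0.302 for IGFBP3, from -0.124 to 1.56 for IGFBP5 and from -0.462 to 0.304 for INSR. For control shRNA minus control it ran from -0.378 to 0.416 for IGFBP2, from -0.344 to 0.011 for IGFBP6 and from -0.912 to 0.281 for IGFBP7. The causes were not tested.

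Among the other named genes, whose alternatives were added after seeing the data, 3 changed sign with a library left out: AXL from -0.0636 to 1.06 and IRS1 from -0.198 to 0.0564 with TP-0903, and IGF2 from -0.0829 to 2.42 in the knockdown comparison. GSK3B in the knockdown comparison became 0.102 with effective lengths.

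Over all genes, 1989 were called with TP-0903, 4647 with the replicate block, 3515 with no filter, 3002 with DESeq2 and 489 to 1727 with a library left out. The difference of effects called 3645 genes, 6530 with the block and 1855 to 2670 with a library left out, and the knockdown comparison 6627 genes, and 4408 to 6105 with a library left out. Control shRNA minus control called 1618 genes, 3352 with no filter, 2758 with DESeq2, 743 with its own 4 libraries and 343 to 1277 with a library left out. With 2 libraries a group, few degrees of freedom limit every test, and INSR and IGFBP1 rest on the fewest reads.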
